A study of Mus musculus with 10 samples.

Results

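The PARP family of ADP-ribosyltransferases was examined in cultured adipose stem and precursor cells (ASPCs), to ask whether Tiparp alone among them responds to a ligand of the aryl hydrocarbon receptor (AHR). The members were the rows of the count table with the symbols Tiparp, Parp1, Parp2, Parp3, Parp4, Parp6, Parp8, Parp10, Parp16 and Tnks, which are 10 of its 25229 rows. All 10 were found and all 10 passed the filter on low counts. The cells were CD45-CD31-Pdgfra+ cells of genotype WT, sorted from mouse perigonadal fat (its stromovascular fraction) and grown to confluence without passaging. They received 100 nM FICZ (6-formylindolo[3,2-b]carbazole, an AHR ligand) or its vehicle DMSO, and RNA was collected after 6 hr. There were 5 libraries per treatment, numbered 1 to 5 in each. The labels give neither the age, sex nor strain of the mice, nor do they state that the libraries come from separate animals or cultures, so the p-values measure only the spread between these libraries.

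PARP enzymes take ADP-ribose from NAD+ and attach it to proteins, either as single units or as chains. Tiparp, also called Parp7, attaches single units, is a known transcriptional target of AHR, and acts on AHR itself to limit its activity. Parp1, Parp2 and Parp3 act at DNA breaks, Tnks (tankyrase) modifies the Wnt pathway scaffold axin, Parp4 is found in vault particles, Parp16 sits in the endoplasmic reticulum membrane, and Parp10, like Parp6 and Parp8, attaches single units. Upon ligand binding AHR enters the nucleus, pairs with Arnt and binds DNA at response elements that share the core GCGTG.

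The sequence before the start site is shown for 3 members, because it is the stretch in which the response element core can be compared between Tiparp and members that did not pass the test. Promoter windows from RefSeq (GRCm38.p6), from 250 bases before to 50 after the start of each gene, were matched for 8 members, all but Parp10 and Tnks. Each is printed 5′ to 3′ on the strand of its gene and stops before the first exon. The capitals mark each GCGTG, which reads CACGC where it lies on the other strand.
Tiparp, chr3:65528197-65528409, plus strand: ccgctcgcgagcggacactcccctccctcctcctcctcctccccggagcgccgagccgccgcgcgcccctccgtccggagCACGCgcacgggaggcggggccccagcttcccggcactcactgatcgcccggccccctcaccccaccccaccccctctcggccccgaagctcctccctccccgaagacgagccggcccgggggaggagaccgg
Parp1, chr1:180568641-180568890, plus strand: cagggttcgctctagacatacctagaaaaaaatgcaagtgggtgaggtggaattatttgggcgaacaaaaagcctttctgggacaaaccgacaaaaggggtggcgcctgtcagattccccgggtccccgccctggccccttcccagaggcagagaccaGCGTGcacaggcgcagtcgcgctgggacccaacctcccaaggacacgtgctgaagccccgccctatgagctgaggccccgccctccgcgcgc
Parp6, chr9:59617034-59617283, plus strand: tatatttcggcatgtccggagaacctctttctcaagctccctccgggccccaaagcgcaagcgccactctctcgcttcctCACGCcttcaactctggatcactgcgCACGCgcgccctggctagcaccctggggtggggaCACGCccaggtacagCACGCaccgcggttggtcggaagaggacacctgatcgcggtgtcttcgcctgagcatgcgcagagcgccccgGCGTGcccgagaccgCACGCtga
The Tiparp sequence held 1 core on the minus strand, 133 bases before the GENCODE start of the gene, where the printed stretch ends, and 170 before the RefSeq start, which lies 37 bases further on. The Parp1 sequence held 1, on the plus strand 92 bases before its RefSeq start. The Parp6 sequence held 6, and its whole window held 7. Of the other windows, those of Parp2, Parp3 and Parp4 held 1 core each, that of Parp8 held 2 and that of Parp16 held 0. Searched on both strands, GCGTG was found in 32.4% of the 32851 windows of this length, and 7 or more matches in 0.0639%. The longer form TNGCGTG, found in 5.07% of windows, was in none of the 8 members' windows. Of 3 AHR axis windows also searched, that of Ahrr held 1, and those of Cyp1a1 and Cyp1b1 held 0. A match of these letters describes the window and is not evidence of binding.

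The libraries held 38328611 to 50210111 counts, and counts of the members ranged from 229 (Parp16) to 9091 (Parp1). How counting error compared with the spread between libraries was not measured for each member. Levels are given as CPM, the count relative to the library total after TMM scaling. The summed level of the 8 ASPC markers was 10379 to 15292 CPM in DMSO and 10183 to 13851 CPM in FICZ, and that of the 10 immune markers 25.1 to 55.9 CPM over all libraries, that of the 6 endothelial markers 65.1 to 87.8 CPM and that of the 6 mature adipocyte markers 4.65 to 22.9 CPM, with Lep at 0 counts throughout. All 12 hepatocyte markers were present too, at a summed 1276 to 8566 CPM in DMSO, highest in DMSO replicate 5, and 1241 to 1906 CPM in FICZ. Before adjustment all 12 were past 0.05 and lower with FICZ, where 3.49% of all tested genes were, with a median log2 fold change of -1.12. None of the 12 was with the replicate block or without DMSO replicate 5, which moved the median to -0.76 and -0.50. Their part in the other results was not tested. In bulk libraries, fewer cells of a type and less RNA per cell cannot be told apart.

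Tiparp rose with FICZ. Its level in the DMSO libraries was 42.2, 42.4, 49.7, 40.8 and 48.1 CPM for replicates 1 to 5, and in the FICZ libraries 88.3, 90.2, 102.6, 69.4 and 69.1 CPM. The groups did not overlap, as for 0.351% of all tested genes in this direction, and the lowest FICZ library stood well above the highest DMSO library. The mean went from 44.6 ± 3.96 CPM to 83.9 ± 14.5 CPM (SD, n = 5 each), a 1.88-fold change. On the log2 scale the fold change was 0.91 (SE 0.12, 95% interval 0.65 to 1.17; edgeR quasi-likelihood test, adjusted p = 0.0335), and a two-sided exact permutation test on the same log2 values gave p = 0.0079, the smallest that 5 against 5 libraries allow. The fold was not even among the FICZ libraries: the same-numbered differences were 1.06, 1.09, 1.05, 0.77 and 0.52 on the log2 scale, with FICZ replicates 4 and 5 the lowest.

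Tiparp was the only member past the threshold, 1 of 10, where 3 of all 14251 tested genes (0.0211%) passed, all of them higher. The other 2 were Ahrr and Cyp1a1. When the replicate number entered the fit as a block, the calls numbered 8 (0.0561%) and Tiparp fell just short, with a log2 fold change of 0.90 (SE 0.10) and an adjusted p of 0.0509. DESeq2 gave Tiparp an adjusted p of 2.66e-07 without and 2.18e-10 with the block, where it called 16 (0.0845%) and 26 (0.14%) genes. With 1 library left out, the log2 fold change of Tiparp stayed between 0.83 and 0.97, but edgeR's adjusted p passed without DMSO replicate 5, FICZ replicate 4 or FICZ replicate 5 and did not pass without any of the other 7: it was 0.189, 0.125, 0.065 and 0.19 without DMSO replicates 1 to 4, and 0.17, 0.162 and 0.0692 without FICZ replicates 1 to 3. No other member passed in any of the 17 alternative fits, in which the smallest adjusted p of another member was 0.572.

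**Figure D1:**
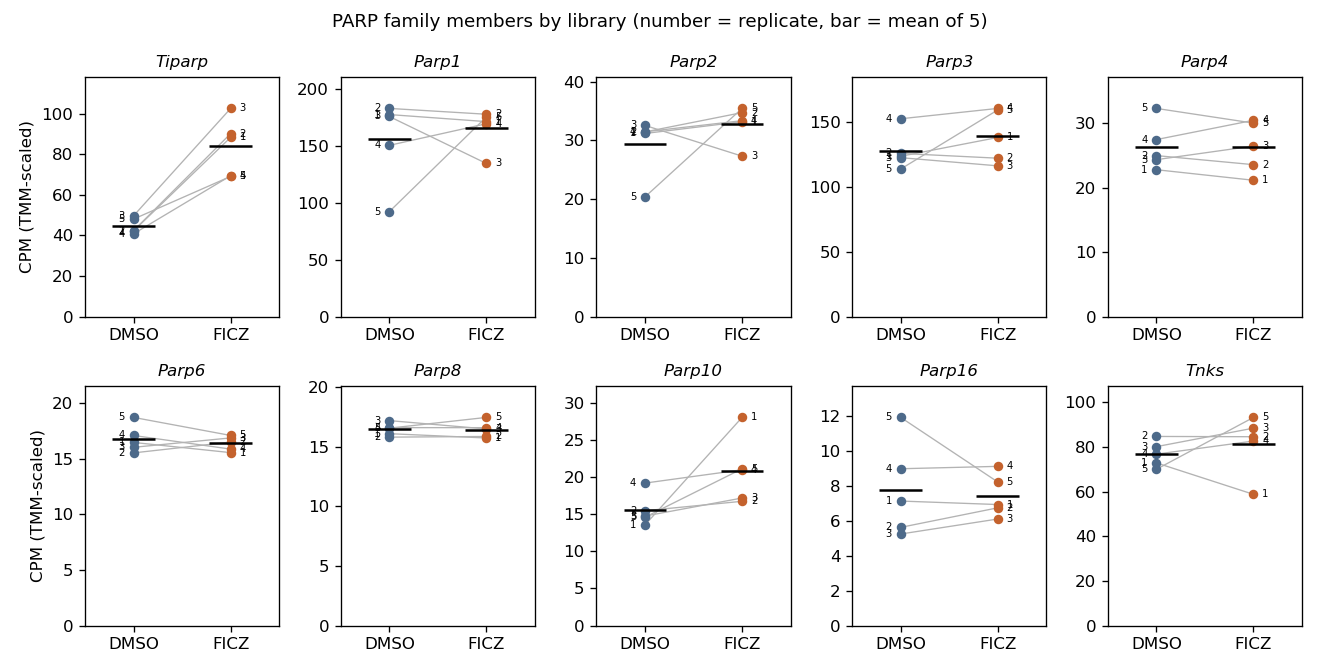
Level of each of the 10 members (CPM, y axis from 0) in the DMSO and FICZ libraries, with the replicate number beside each point, grey lines joining the same number and a black bar at the mean of 5. The Tiparp points separate, 40.8 to 49.7 against 69.1 to 102.6 CPM, and those of the other 9 members overlap.

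Per kb of exon, Tiparp was the third most abundant member in both groups. In DMSO, Parp3 was first at 34.4 ± 3.95 CPM per kb and Parp1 second at 29.4 ± 7.11, and their ranges overlapped. Tiparp followed at 10.2 ± 0.91 CPM per kb, with no library as high as the lowest of Parp1 (17.4) nor as low as the highest of Parp2 (8.96). Parp2 (8.10 ± 1.40), Tnks (5.16 ± 0.39), Parp4 (4.03 ± 0.57) and Parp10 (3.63 ± 0.51) followed, each overlapping the next, and then Parp6, Parp16 and Parp8 between 1.85 and 2.16 CPM per kb, which overlapped too (SD, n = 5 throughout). In FICZ, Tiparp reached 19.3 ± 3.32 CPM per kb and kept its place, below the lowest Parp1 library (25.4), and Parp10 and Parp4 exchanged places with overlapping ranges. By the length of the longest transcript in place of all exons, Tiparp was in place 4 in DMSO and 3 in FICZ. Tiparp made up 8.69 to 13.0% of the summed level per kb of the 10 members in DMSO and 12.8 to 21.9% in FICZ. These ranges touched: DMSO replicate 5, in which Parp1 was low, was at 13.0% and FICZ replicate 5 at 12.8%.

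**Figure D2:**
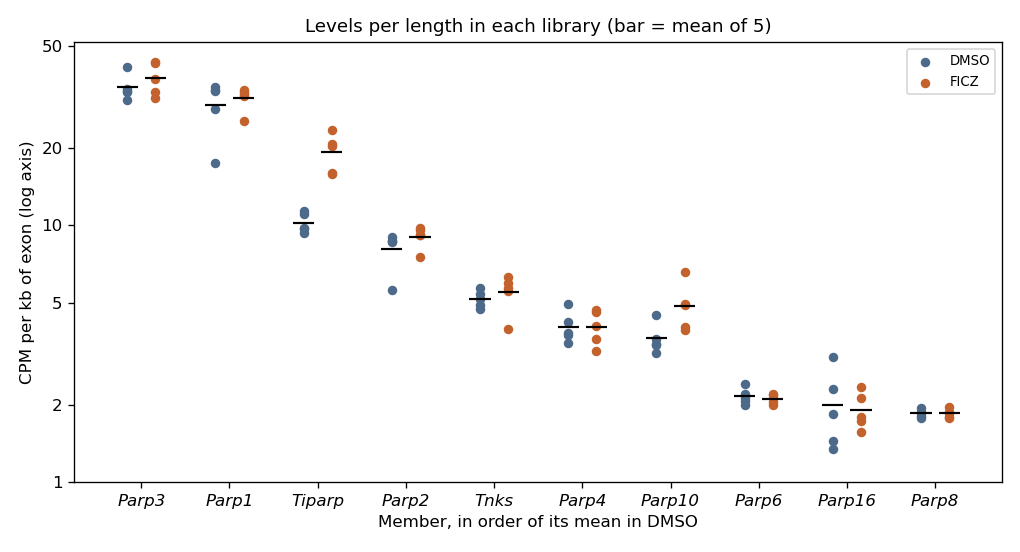
CPM per kb of exon (log axis) for the 10 members in order of their mean in DMSO, each point 1 library and each bar the mean of 5. Tiparp moves from 10.2 to 19.3 CPM per kb between Parp1 and Parp2, and the groups of each other member overlap.

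The DNA break enzymes did not pass the test. Parp1, the main maker of poly(ADP-ribose), was at 177.2, 182.6, 175.6, 150.2 and 92.0 CPM in DMSO and 171.1, 177.5, 134.3, 169.2 and 175.2 CPM in FICZ. The groups overlapped almost throughout, and DMSO replicate 5 was the lowest of all libraries. The log2 fold change was 0.09 (95% interval -0.28 to 0.45), and without DMSO replicate 5 it was -0.05. Parp2, its close relative, had the same low library: 31.2, 31.4, 32.5, 31.4 and 20.4 CPM in DMSO against 33.2, 34.7, 27.3, 33.3 and 35.4 CPM after FICZ. The log2 fold change of Parp2 was 0.16 (-0.12 to 0.44), and 0.05 without DMSO replicate 5. Parp3 ranged from 113.5 to 152.2 CPM in DMSO and with FICZ from 115.9 to 160.1 CPM, with a log2 fold change of 0.13 (-0.12 to 0.37), and replicate 4 was the highest library of both groups.

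Of the enzymes with other sites of action, Tnks was at 72.9, 84.7, 80.1, 76.8 and 70.0 CPM in DMSO and 58.8, 84.6, 88.4, 82.6 and 93.2 CPM in FICZ. FICZ replicate 1 was the lowest of the 10 libraries, and without it the log2 fold change went from 0.08 to 0.18 (unadjusted p = 0.0425, far from the threshold once adjusted). Parp4, the vault member, ranged from 22.8 to 32.3 CPM in DMSO and from 21.1 to 30.4 CPM in FICZ (log2 fold change -0.0027, 95% interval -0.28 to 0.27). Parp16, the membrane member and the least counted of the 10, ranged from 5.25 to 11.9 CPM in DMSO and from 6.11 to 9.12 CPM in FICZ, and its interval, -0.55 to 0.42, was the widest. Parp6 and Parp8 were the steadiest members. Parp6 lay between 15.5 and 18.7 CPM in DMSO and between 15.6 and 17.1 CPM in FICZ (log2 fold change -0.03, -0.21 to 0.14). Parp8 lay between 15.7 and 17.5 CPM in all 10 libraries (log2 fold change -0.0019, -0.16 to 0.16). For these 2 genes a change of the size measured for Tiparp lies far outside the interval.

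Parp10 came nearest to Tiparp. It was at 13.6, 15.5, 14.7, 19.2 and 14.6 CPM in DMSO and at 28.0, 16.7, 17.2, 21.0 and 21.1 CPM in FICZ. The groups overlapped through DMSO replicate 4, which was above FICZ replicates 2 and 3, and FICZ replicate 1 stood above all others. The log2 fold change was 0.42 (SE 0.15, 95% interval 0.10 to 0.75), higher in 5 of 5 same-numbered pairs, where 4.32% of all tested genes were. The unadjusted p was 0.015, which ranked 110th of the 14251 genes, and the adjusted p was 0.999. Counted at 0.05 before adjustment, 2 of 10 members passed, Tiparp and Parp10, against 4.82% of all tested genes (1.33% higher and 3.49% lower), and both were higher. Without FICZ replicate 1 the log2 fold change of Parp10 was 0.29 (unadjusted p = 0.0403). Of the other 9 members it was the only one whose interval reached that of Tiparp, and their median log2 fold change was 0.08, beside 0.01 for all tested genes.

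**Figure D3:**
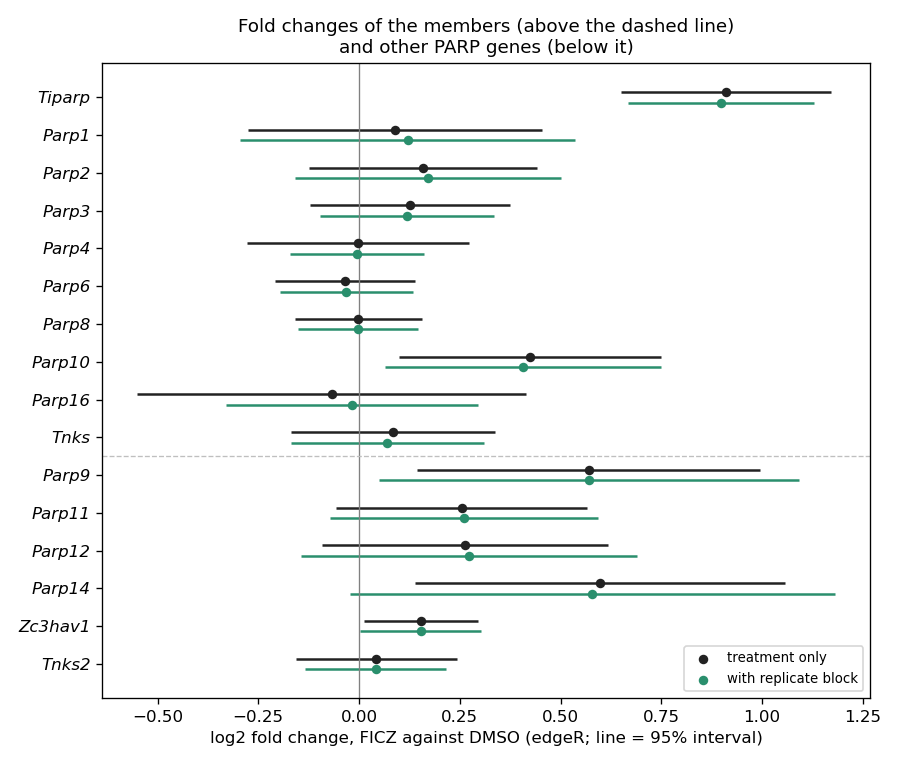
Log2 fold change of FICZ against DMSO (x axis) with its 95% interval from edgeR, for the 10 members above the dashed line and 6 other PARP genes below it, with treatment only (black) and with the replicate block (green). Tiparp lies at 0.91 and 0.90, and the intervals of 8 of the other 9 members include 0 in both fits, Parp10 being the exception.

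Since a call for one gene and none for another does not test their difference, the log2 ratio of Tiparp to each other member was compared directly within libraries. The ratio was higher with FICZ for all 9, by 0.49 to 0.93 on the log2 scale. For Parp3, Parp4, Parp6, Parp8 and Tnks the groups did not overlap, and the exact two-sided permutation test gave p = 0.0079, the smallest possible with 252 arrangements. The log2 ratio of Tiparp to Parp4, for instance, was 0.89, 0.76, 1.03, 0.57 and 0.57 in DMSO and 2.06, 1.94, 1.95, 1.19 and 1.20 in FICZ, all higher than in any DMSO library. For Parp2, Parp16 and Parp1 the ratios overlapped, with exact permutation p = 0.0238, 0.0317 and 0.0397. The Parp1 result passed only with all libraries or without DMSO replicate 5: without any 1 of the other 9 libraries the exact permutation p was 0.0635 to 0.0794. The Parp16 result was at 0.0635 without DMSO replicate 1, 4 or 5 or FICZ replicate 1, 2 or 3. For Parp10 the ratio was 1.64, 1.45, 1.75, 1.09 and 1.72 in DMSO and 1.65, 2.43, 2.58, 1.72 and 1.71 in FICZ. Only FICZ replicates 2 and 3 stood above the DMSO range, and the difference of 0.49 did not pass (exact permutation p = 0.0952; 0.0476 without DMSO replicate 3). By this unpaired test Tiparp was separated from 8 of the 9 members and not from Parp10, and the 9 p-values are unadjusted. By same-numbered pairs the ratio was higher in 5 of 5 for Parp3, Parp4, Parp6, Parp8, Parp16 and Tnks, which put the exact sign-flip test at its smallest p, 0.0625. For Parp1, Parp2 and Parp10 it was higher in 4 of 5, lower in the pair numbered 5, and the exact sign-flip p was 0.125. The paired test could not pass 0.05 for any member.

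**Figure D4:**
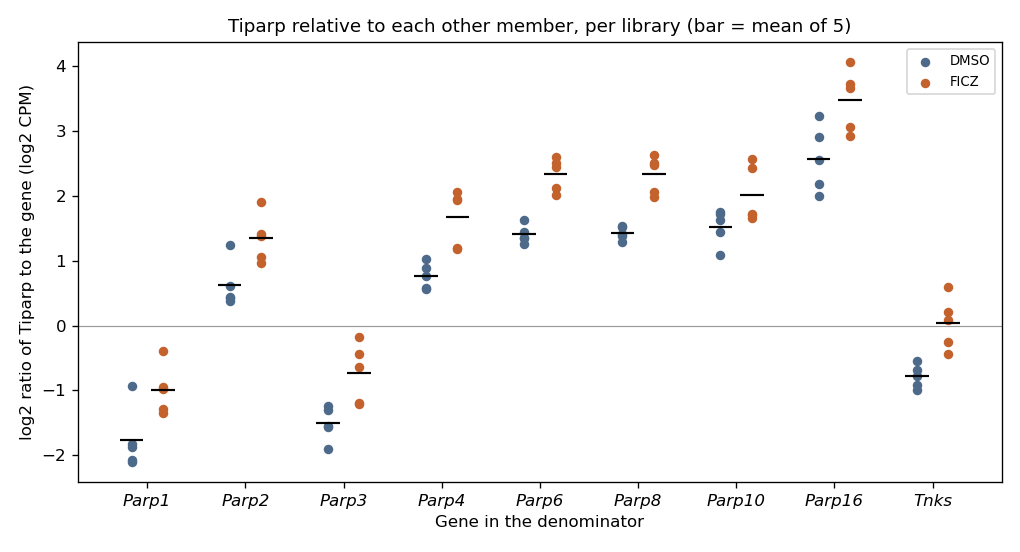
Log2 ratio of Tiparp to each of the other 9 members (difference in log2 CPM, y axis) in each DMSO and FICZ library, with bars at the mean of 5. The ratio moves up for every gene, and for Parp10 3 of the 5 FICZ points, 1.65 to 1.72, stay within the DMSO points.

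The 6 PARP genes outside the member list, Parp9, Parp11, Parp12, Parp14, Zc3hav1 (the antiviral zinc finger protein) and Tnks2, did not pass in edgeR or DESeq2 either, 0 of 6, and 3 of them (Parp9, Parp14 and Zc3hav1) were higher at 0.05 before adjustment, where 1.33% of all tested genes were. That number was 2 with the replicate block, and without DMSO replicate 1 or 3 or FICZ replicate 1, 3, 4 or 5. Scaling by library size alone or using no filter on low counts gave 2 as well. It was 4 without FICZ replicate 2 and 5 without DMSO replicate 5. All 6 fold changes were above 0, with a median of 0.26, where 53.8% of all tested genes were above 0. Parp14 was at 25.0, 38.1, 33.1, 43.6 and 47.0 CPM in DMSO and at 76.9, 35.5, 64.6, 55.7 and 50.1 CPM after FICZ. FICZ replicates 1 and 3 were the high libraries, and FICZ replicate 2 lay inside the DMSO range. Its log2 fold change was 0.60 (SE 0.21, unadjusted p = 0.0151, adjusted p = 0.999). Parp9 followed with 0.57 (SE 0.19, unadjusted p = 0.0131), Parp12 with 0.26, Parp11 with 0.25 and Zc3hav1 with 0.15 (unadjusted p = 0.0366), and Tnks2, the second tankyrase, with 0.04. The ratio of Tiparp to Parp9 and to Parp14 was not shown to differ between the groups (differences 0.33 and 0.31, exact permutation p = 0.294 and 0.27), and the ratio of Tiparp to the other 4 did (exact permutation p = 0.0079 to 0.0317). By the unpaired test, Tiparp was therefore not separated from 3 of the 15 other PARP genes measured, Parp9, Parp10 and Parp14.

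Several of these genes are known to be induced by interferon, and interferon-stimulated genes varied between the libraries. The summed level of the 20 listed was 314.4, 421.0, 274.2, 549.9 and 432.3 CPM in DMSO and 1021, 321.8, 729.9, 584.8 and 435.0 CPM in FICZ. FICZ replicates 1 and 3 were the highest, and FICZ replicates 2 and 5 were within the DMSO range. The FICZ libraries fell in the same order as for Parp14. In edgeR and in DESeq2, 0 of the 20 passed. All 20 fold changes were above 0, with a median of 1.18 (0.84 with the block), and before adjustment 8 were past 0.05, where 1.33% of all tested genes were in this direction. That number was 0 with the block in edgeR. With 1 library left out, it ranged from 1 without FICZ replicate 1 to 17 without FICZ replicate 2. It was 2 without DMSO replicate 1, 3 without FICZ replicate 3 and 13 without FICZ replicate 5. Ifit3 came first (log2 fold change 1.57, SE 0.52, adjusted p = 0.999), at 1.13 with the block and 0.93 without FICZ replicate 1. With each library taken as its deviation from its group mean (n = 10, sharing the same libraries and scaling), the correlation with the mean level of these genes was 0.90 for Parp14, 0.82 for Zc3hav1, 0.77 for Parp12, 0.75 for Parp9, 0.74 for Parp11, 0.59 for Parp10 and 0.34 for Tiparp. The correlation was -0.56 for Tnks, -0.38 for Parp2 and -0.37 for Parp1, and between -0.19 and 0.13 for the remaining PARP genes. All of these r values include FICZ replicate 1, and none was computed without it. That library, which set the high Parp10 value, was also the highest for the interferon-stimulated genes. FICZ replicate 3, the second highest, had a Parp10 level inside the DMSO range. The part of this variation in the Parp10 difference was not tested.

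**Figure D5:**
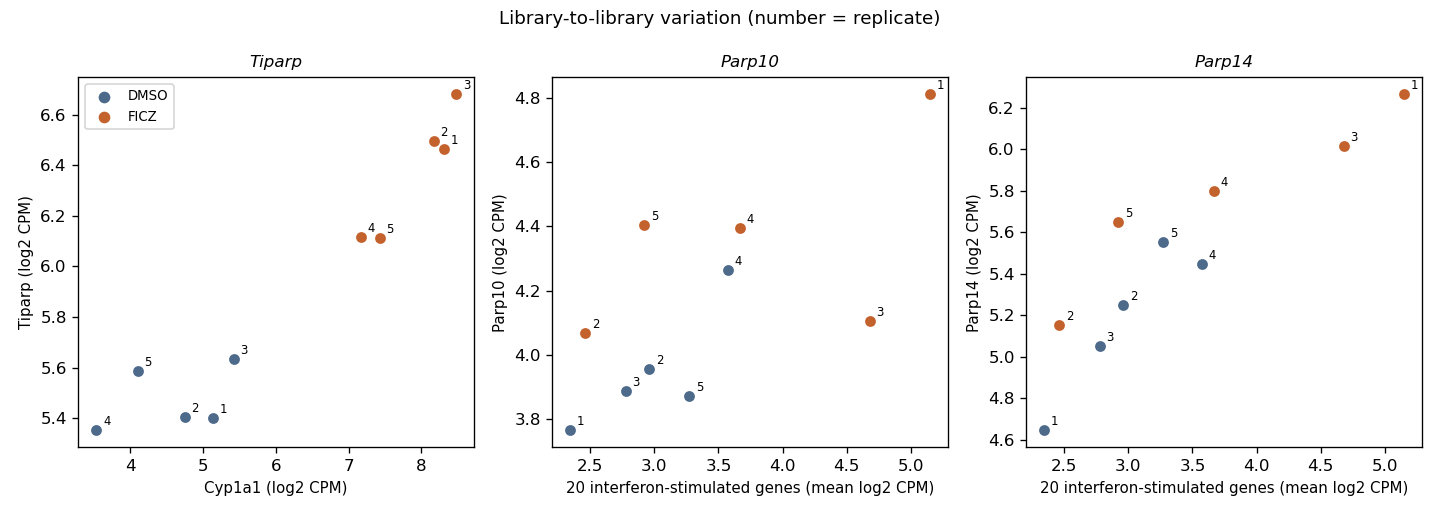
Left, Tiparp against Cyp1a1 in the 10 libraries (both log2 CPM). Middle and right, Parp10 and Parp14 against the mean log2 CPM of 20 interferon-stimulated genes, with replicate numbers beside the points. FICZ replicates 4 and 5 are the lowest FICZ libraries for both Tiparp and Cyp1a1, and DMSO replicates 4 and 5 are the lowest DMSO libraries for Cyp1a1. FICZ replicate 1 is the highest for Parp10, Parp14 and the interferon-stimulated genes.

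DMSO replicate 5 stood apart for several members at once. It was the lowest library for Parp1 and Parp2 and the highest for Parp4, Parp6 and Parp16, at 32.3, 18.7 and 11.9 CPM. The same library had the lowest summed level of the 12 genes of dividing cells, 2344 CPM against 2701 to 3155 CPM in the other 9, and the highest of the hepatocyte markers, 8566 CPM against 1241 to 3481 CPM. As deviations from the group means (n = 10), Parp1 and Parp2 went with the dividing cell genes (r = 0.87 and 0.81) and against the hepatocyte markers (r = -0.81 and -0.75), and Parp6 and Parp16 the other way (r = -0.86 and -0.70 with dividing cell genes). For Tiparp these values were -0.24 and 0.15. All of these r values include DMSO replicate 5, the extreme library for both lists, and none was computed without it. Without this library Tiparp had a log2 fold change of 0.94 and no other member passed.

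The genes that work with the family showed no call in edgeR, and DESeq2 called 0 of them with or without the block. Among the 8 that remove ADP-ribose, 0 passed, even before adjustment, and the median log2 fold change was 0.05. Macrod1, a hydrolase of single ADP-ribose units, had the smallest p (log2 fold change -0.33, SE 0.16, unadjusted p = 0.0581). Among the 10 partners and readers, 0 passed and the median was 0.11. Before adjustment 1 was past 0.05, where 4.82% of all tested genes were. All 10 fold changes were above 0, where 53.8% of all tested genes were. Axin2, a tankyrase substrate and Wnt target, had the smallest p (log2 fold change 0.36, SE 0.13, unadjusted p = 0.0197). Of the 12 genes of NAD supply and use, 10 were tested, all but Nmrk2 and Bst1. In the main fit 0 passed at either p and the median was -0.05. With the replicate block 2 were past 0.05 before adjustment, where 4.65% of all tested genes were. Nampt, the main salvage enzyme of NAD synthesis, averaged 88.0 ± 9.32 CPM with DMSO against 100.0 ± 8.77 with FICZ (SD, n = 5; log2 fold change 0.18, unadjusted p = 0.0659). Of the 5 genes whose proteins Tiparp binds or modifies, 0 passed, and Nr1h3, which encodes the liver X receptor alpha, had the smallest p (log2 fold change -0.33, SE 0.14, unadjusted p = 0.0327). The median of the 5 was -0.07.

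In the AHR axis, 2 of 7 genes passed, both higher, where 0.0211% of all tested genes passed. Ahrr, the AHR repressor, went from 10.1 ± 2.21 to 32.1 ± 2.87 CPM (log2 fold change 1.66, SE 0.16, adjusted p = 0.0032) and Cyp1a1, the cytochrome that metabolises FICZ, from 26.8 ± 12.8 to 255.2 ± 92.4 CPM (log2 fold change 3.25, SE 0.38, adjusted p = 0.0189; SD, n = 5). Ahrr passed with any 1 library left out. Cyp1a1 kept a log2 fold change of at least 3.06 but did not pass without DMSO replicate 1 or 2 or FICZ replicate 1, 2 or 3 (adjusted p = 0.0692 to 0.0924), nor with no filter on low counts (0.0726). The log2 fold change of Tiparp, 0.91, was the smallest of the 3 called. Cyp1b1 was at 827.4 to 1176 CPM in DMSO and 1409 to 1594 CPM in FICZ. These groups did not overlap, as for 0.351% of all tested genes in this direction. Cyp1b1 missed the threshold in edgeR (log2 fold change 0.62, adjusted p = 0.147). It passed with DESeq2, with and without the block, and in edgeR without DMSO replicate 5 (adjusted p = 0.022). Nqo1, a quinone reductase, was higher in 5 of 5 same-numbered pairs, where 4.32% of all tested genes were (log2 fold change 0.60, SE 0.22, adjusted p = 0.999). It passed with the replicate block (SE 0.06, adjusted p = 0.0352). Ahr itself, at 14.3 ± 1.95 and 10.5 ± 2.59 CPM, did not pass (log2 fold change -0.44, unadjusted p = 0.0196). Its same-numbered differences were -0.81, -0.20, -0.06, -0.43 and -0.82 on the log2 scale. Arnt did not differ measurably, at 86.1 ± 8.25 and 86.0 ± 8.80 CPM (95% interval of the log2 fold change -0.20 to 0.20). Cyp1a2, a liver enzyme, was at 33.1 CPM in DMSO replicate 5, the library highest in hepatocyte markers, and between 4.42 and 13.0 CPM in the other 9 (log2 fold change -1.11, unadjusted p = 0.0237). Without that library the log2 fold change was -0.52 (unadjusted p = 0.0782).

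The 5 tested genes whose log2 CPM was most like that of Tiparp over the 10 libraries were Cyp1a1 (Pearson r = 0.96), Arl6ip5 (0.95), Ahrr (0.92), Edc3 (0.91) and Twf1 (0.88). Since both treatments enter this measure, the values after removing the group means are given as well, and were 0.66, 0.86, 0.28, 0.68 and 0.85. Without FICZ replicates 2 and 3, the libraries farthest from the Tiparp median, r over all was 0.94, 0.91, 0.92, 0.85 and 0.78. By the values after removing the group means, Cyp1a1 was in place 1043 among all tested genes. Cyp1a1 was at 317.3, 287.0, 355.5, 144.0 and 172.4 CPM in the FICZ libraries, lowest in replicates 4 and 5 as Tiparp was. In DMSO it was lowest in those replicates too, at 11.6 and 17.2 CPM. Its same-numbered differences, 3.17, 3.41, 3.05, 3.63 and 3.32, were not smallest there, whereas those of Tiparp were. Ahrr was at 31.7, 34.1, 32.5, 27.4 and 34.6 CPM in the FICZ libraries. Of the other PARP genes, the most like Tiparp were Zc3hav1 (r = 0.78), in place 55 among all tested genes, and Parp14 (r = 0.64, place 240), and of the members Parp10 (r = 0.53, place 675). After removing the group means these became 0.17, 0.15 and -0.34. By that measure Tnks2, with r = 0.42 over all libraries, was the highest of the PARP genes at 0.73. In the AHR axis it was 0.77 for Ahr, 0.70 for Nqo1 and -0.65 for Arnt. Parp3 was the member that ran most strongly against Tiparp within the treatments (r = -0.88), highest in the replicates numbered 4.

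Some counts could be shared between genes, since strand use in counting is not given in the sources used here. Tiparp (GENCODE, GRCm38, chr3:65528410-65555518, plus strand) overlaps the pseudogene 4931440P22Rik on the other strand over 223 of its 4358 exonic bases. That gene, named here after its values were seen, had 10 to 19 counts in DMSO and 21 to 32 in FICZ, or 0.427 to 1.18% of the Tiparp count in the same library. Its groups did not overlap either, as for 0.351% of all tested genes in this direction (log2 fold change 0.85, SE 0.28, adjusted p = 0.999). How reads of the shared bases were divided between these genes was not tested. Parp10 (chr15:76231174-76243441, minus strand) shares 205 of its 4275 exonic bases with Plec on the same strand, and 3.59% of its 50-base words. Plec had 14965 counts in FICZ replicate 1, the lowest of the FICZ libraries, where Parp10 was highest. The Parp4 exons overlap Gm16573 over 335 bases and the Tnks exons overlap Gm9939 over 635, both on the other strand. Of the transcript words of Parp3, Parp8 and Parp16, 0% occur in another gene.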

How the data were processed

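Sorted ASPCs were sequenced in bulk. Per the methods and labels, the authors aligned the reads with STAR 2.7.7 to mm10, passed counts to DESeq2 and deposited the counts of each gene symbol as whole numbers with no scaling. The counting program, annotation, strand setting and treatment of multimapped reads are not given in the sources used here. Of 25229 rows, 5934 had no count in any library. 2 symbols occurred more than once, in 8 rows, none of them a member. Groups were taken from the sample titles.

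Counts were scaled by TMM, filtered with filterByExpr and tested with edgeR 4.0.16 (quasi-likelihood, robust, R 4.3.3) on treatment alone, over 14251 genes, with Benjamini-Hochberg adjustment over all of them and a threshold of 0.05. Totals were 38328611 to 50210111 counts, so that 3 counts correspond to 0.0603 to 0.0787 CPM, which covers counting error only. The biological coefficient of variation was 0.209. Log2 CPM used a prior count of 2. The scripts were tested on simulated data. Libraries of a group differed by 15.7 to 266 times the sampling noise (chi-square per degree of freedom), so none was counted as a duplicate. Same-numbered DMSO and FICZ libraries deviated together (r = 0.27, 0.28, 0.15, 0.32 and 0.24, mean 0.25, against -0.06 for other pairs). However, DMSO replicate 3 went best with FICZ replicate 2 (r = 0.30) and DMSO replicate 4 with FICZ replicate 5 (r = 0.37). The numbers were therefore taken as a possible pairing, used in the alternative fits with a block and not in the main fit. This pairing rests on these data and the shared numbers in the titles. The replicate block, DESeq2 1.42.0, 2 other scalings, 2 other filters and leaving out each library were tried as alternatives. Likeness to Tiparp was Pearson's r over 10 libraries.

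Named were the 10 members, all genes of the lists of other PARP genes and of the AHR axis, from the other lists those past the threshold and the one with the smallest p, and the 5 genes most like Tiparp. The members and lists were chosen with earlier results of these data known. Exon lengths and overlaps came from GENCODE (GRCm38) and promoter windows from RefSeq (GRCm38.p6). The paper's other experiments were not analysed here.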

Additional observations from a re-analysis of the deposited data

Results flagged for a closer look

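Within groups of 5 libraries, 6 of the 46 groups tested held a library whose gap to its nearest neighbour was over Dixon's 95% limit for the group's range, where chance gives about 2.3. Parp1 and Parp2 were each lowest in DMSO replicate 5 (gap over range 0.715 and 0.908, with 92.0 and 20.4 CPM against at least 150.2 and 31.2 CPM in the other 4) and in FICZ replicate 3 (0.828 and 0.748, with 134.3 and 27.3 CPM against at least 169.2 and 33.2 CPM). Tnks was lowest in FICZ replicate 1 (0.739), at 58.8 CPM against at least 82.6 CPM. Ahrr was lowest in DMSO replicate 4 (0.857), at 6.24 CPM against at least 10.6 CPM. The Tiparp values held no such library in either group.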

How the results depend on the processing

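The edgeR call for Tiparp was near the threshold. With the replicate block the number of genes past the threshold was 8 in place of 3, that of members 0 in place of 1, and Tiparp had a log2 fold change of 0.90. DESeq2 called 16 genes, and 26 with the block. With 1 library left out, 1 to 4 genes and 0 to 1 members passed, and the Tiparp fold change ranged from 0.83 to 0.97. The direction for Tiparp held in all 17 alternatives and its call in 9. Size factors of DESeq2, library size alone and a minimum of 10 counts in 5 libraries each gave 3 genes, and no filter gave 2. Under the replicate block with the exact sign-flip test, which cannot go under 0.0625, the log2 ratio of Tiparp differed by 0.77 for Parp1, 0.73 for Parp2, 0.78 for Parp3, 0.90 for Parp4 and Parp8, 0.93 for Parp6, 0.91 for Parp16 and 0.83 for Tnks, with p = 0.125 for Parp1 and Parp2 and 0.0625 for the others. With 1 library left out, where p is coarser, the ratio to Parp1 ranged from 0.62 to 0.98 and lost its call in 9 of 10 fits, that to Parp16 ranged from 0.77 to 1.08 and lost it in 6, and that to Parp10 ranged from 0.35 to 0.58 and gained one without DMSO replicate 3 (0.55, exact permutation p = 0.0476). By longest transcript Tiparp was in place 4 in DMSO.

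Fold changes near 0 changed sign when 1 library was left out. The range was -0.051 to 0.16 for Parp1, -0.067 to 0.081 for Parp4, -0.061 to 0.0088 for Parp6, -0.036 to 0.016 for Parp8, -0.18 to 0.14 for Parp16, -0.013 to 0.089 for Tnks2 and -0.064 to 0.051 for Arnt, none past the threshold. The cause of these changes was not tested. The block changed no other call among the named genes except that of Nqo1.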
